A study of Mus musculus with 4 samples.

Results

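Accessible chromatin was examined at the promoters of 76 genes that encode proteins of the cytosolic ribosome, out of 21418 autosomal protein-coding genes in the mouse annotation. The genes were chosen by symbol alone, as Rpl or Rps followed by a number with an optional letter, together with Rplp0, Rplp1, Rplp2 and Rpsa. The symbol rule itself uses no measured value. Proteins of the large subunit are encoded by 45 of them and proteins of the small subunit by 31. The X-linked genes Rps4x, Rpl10, Rpl36a and Rpl39 fall outside the rule.

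The regions come from ATAC-seq, an assay in which a transposase inserts sequencing adapters into open chromatin. Forelimb buds of wild-type NMRI mouse embryos were assayed at E9.5 and at E10.5, with 2 biological replicates per stage and the paired forelimbs of 1 embryo in each replicate. The protocol calls the earlier stage E9.75, and its samples included the adjoining trunk. The later samples are described as forelimbs in the protocol and source label, while their tissue label names hindlimb buds too. The authors combined the replicates into a single list of regions for each stage, which held 42613 regions at E9.5 and 46765 at E10.5. Read totals are not known here, no value has a replicate error, and stage and trunk tissue cannot be told apart. In these bulk samples, more cells with an open promoter and more cutting per cell cannot be told apart either.

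The deposited score of a region reflects its best peak p-value, grows with sequencing depth and reaches a limit near 3100. Scores were therefore converted to percentiles within each list, with the highest-scoring region near 100. The value of a gene is that of its best-scoring region centred within 2.5 kb of any annotated start. A representative start, the one shared by most protein-coding transcripts, was used for distances and sequences. Intervals beside shares are 95% Wilson intervals and cover counting error only.

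The labelled tissue was compared with marker genes. Promoter regions were found at both stages for the limb mesenchyme genes Prrx1, Twist1, Fgf10 and Hand2, with percentiles between 77.7 and 96.9 in the earlier list and between 91.4 and 97.4 in the later one. The promoter of Tbx5, the forelimb determinant, had only a weak region at each stage, at percentiles of 4.11 and 1.36, and these did not overlap. Of the neural tube markers, 2 of 2 had a region at each stage, with Sox2 at 90.7 and 73.4 and Pax6 at 96.6 and 94.9 at E9.5 and E10.5, respectively. Of the trunk markers 3 of 3 did, with Pax3 at 73.0 and 47.0, Meox1 at 35.3 and 12.1 and Tcf15 at 75.7 and 83.0. The hindlimb gene Tbx4 had a region at both stages (45.8 and 24.3) and Pitx1 at E9.5 alone (59.2). Blood and endothelial markers were mixed, with regions at both stages for Tal1 and Kdr and none for Gata1 and Cdh5. The part of these other tissues in the values below was not tested.

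Ribosomal proteins assemble with ribosomal RNA into the small subunit, which decodes the message, and the large subunit, which forms the peptide bond. Their genes are active in almost every cell, and their transcripts typically begin at a cytosine followed by a tract of pyrimidines that ties translation of these messages to growth signals. Mutations in several of them alter particular tissues in the mouse embryo, among them loss of Rpl38, which changes the axial skeleton. Rps19 is the gene mutated most often in Diamond-Blackfan anaemia.

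Runs of pyrimidines lay around many representative starts in the genome sequence. The following windows span 50 bases before to 30 bases from the start on, read from mm9 along the transcribed strand, and capitals mark the longest run of C and T. The first 4 are the longest runs among the members, and the 3 after them belong to the genes without an accessible promoter.
Rpl11 (chr4:135609314-135609393, - strand): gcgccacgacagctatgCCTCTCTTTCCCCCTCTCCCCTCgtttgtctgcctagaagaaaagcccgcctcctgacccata
Rpl7a (chr2:26766287-26766366, + strand): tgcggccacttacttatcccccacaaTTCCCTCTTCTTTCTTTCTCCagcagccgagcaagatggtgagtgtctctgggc
Rpl27a (chr7:116662663-116662742, + strand): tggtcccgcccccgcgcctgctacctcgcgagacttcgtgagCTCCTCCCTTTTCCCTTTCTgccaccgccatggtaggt
Rpl34 (chr3:130433231-130433310, - strand): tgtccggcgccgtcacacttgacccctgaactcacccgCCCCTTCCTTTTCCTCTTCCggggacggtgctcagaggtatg
Rpl3l (chr17:24864724-24864803, + strand): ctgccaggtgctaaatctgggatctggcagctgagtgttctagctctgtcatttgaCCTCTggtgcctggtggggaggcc
Rpl10l (chr12:67385359-67385438, - strand): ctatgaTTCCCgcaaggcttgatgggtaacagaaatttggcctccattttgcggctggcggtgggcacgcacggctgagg
Rpl39l (chr16:10170269-10170348, + strand): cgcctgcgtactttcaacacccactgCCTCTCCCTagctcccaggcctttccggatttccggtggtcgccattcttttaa

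The runs of Rpl11 and Rpl7a lie wholly before the representative start, and those of Rpl27a and Rpl34 span it. They were 23 bases long in Rpl11, 21 in Rpl7a, and 20 in Rpl27a and Rpl34, and 5, 5 and 9 bases in Rpl3l, Rpl10l and Rpl39l. Among all 76 members the median run was 9 bases, compared with 6 over all autosomal protein-coding genes and 6 over the mitochondrial ribosomal protein genes. A run of at least 8 bases was present in 50 members (65.8%, interval 54.6 to 75.5), in 16 of 76 mitochondrial ribosomal protein genes (21.1%) and in 29.8% of all genes. The shortest runs of the members, 4 bases, were those of Rpl15 and Rps29, whose promoter regions stood at percentiles of 95.4 and 90.02 at E9.5.

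An accessible promoter was nearly universal among these genes. A region was found within 2.5 kb of a start for 73 of the 76 members at E9.5 (96.1%, interval 89.0 to 98.6), compared with 65.8% of all autosomal protein-coding genes. At E10.5 the same 73 members had one, compared with 63.1% of all genes. A region at both stages was present for 62% of all genes. The 76 mitochondrial ribosomal protein genes (Mrpl and Mrps), which encode a separate ribosome inside mitochondria, had a region at both stages in 76 of 76 cases.

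The 3 members without a region were Rpl3l, Rpl10l and Rpl39l, paralogs whose expression is known to be restricted to striated muscle in the case of Rpl3l and to be highest in the testis in the case of the other two. The nearest region to the Rpl10l start was centred 55.1 kb away at E9.5 and 6.16 kb away at E10.5, with percentiles of 44.9 and 13.3. Much of the sequence downstream of this start has copies elsewhere in the genome, as given below. The part of these copies in the lack of a region was not tested. For Rpl39l the nearest region lay 22.7 kb away at both stages, and for Rpl3l it lay 3.94 kb and 3.42 kb away. The ratio of observed to expected CpG in the 300 bp around the start was 0.0836 for Rpl3l, the lowest of the members, 0.915 for Rpl10l and 0.727 for Rpl39l, against a member median of 0.934. Rps27l, the fourth paralog whose symbol ends in l, is expressed broadly and differed from these genes in having a region at both stages, at percentiles of 86.6 and 87.8.

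The same promoters were open in both lists. The best region of each of the 73 members overlapped the other list at E9.5 (100%), compared with 93.6% of all genes with a region. At E10.5 the overlap was again 73 of 73, compared with 98%, and 0 of 73 without overlap allows a share of up to 4.11% when 3 counts are taken as the limit. A region covered the representative start at both stages in 73 of 76 members (96.1%), compared with 59.6% of all autosomal protein-coding genes at E9.5 and 55.9% at E10.5. Counting every region near these genes, 82 of 90 at E9.5 overlapped the other list (91.1%), compared with 86.6% of all promoter-proximal regions. At E10.5, 84 of 84 overlapped, compared with 94.8%.

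The 8 E9.5 regions without an E10.5 counterpart were secondary regions that stood beside a shared one, near Rpl13a, Rpl18 (a pair), Rpl23, Rpl36, Rplp2, Rps10 and Rps13. Their percentiles ranged from 3.89 to 65.5. The strongest was chr17:56750947-56752202, a region 1256 bp wide with a score of 482.87 centred 1243.5 bp upstream of the Rpl36 start.

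**Figure D1:**
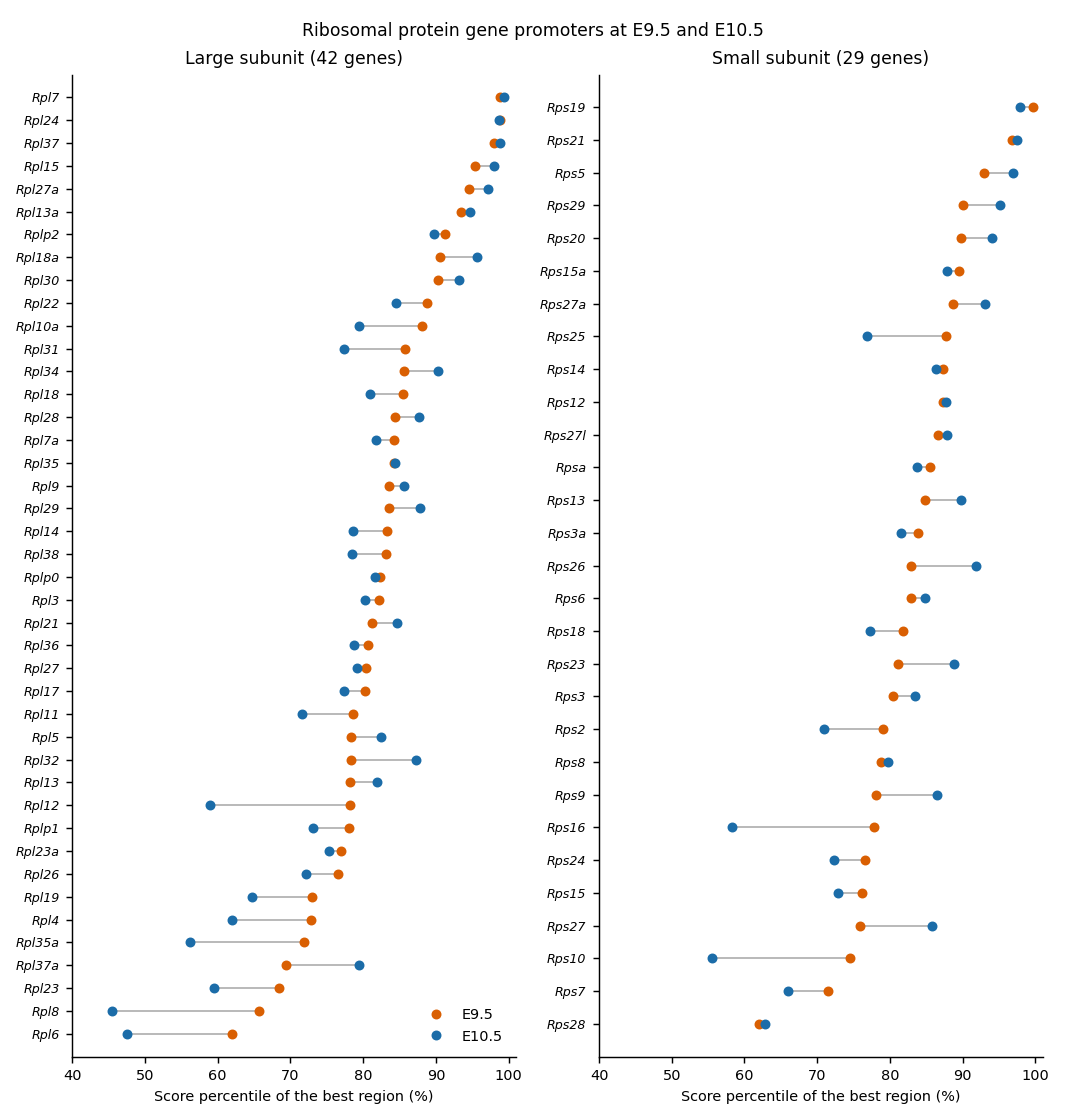
Score percentile of the best promoter region (x axis, in percent of regions in the list) for 42 large-subunit and 29 small-subunit genes, ordered by the E9.5 value, with E9.5 in orange and E10.5 in blue. Most pairs lie close together, and the longest lines belong to Rpl8, Rps16, Rpl12 and Rps10, which were lower at E10.5.

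The regions scored in the upper part of each list without standing at its top. The median percentile of the 73 members was 82.9 at E9.5 (95% order-statistic interval 80.4 to 84.8) and 82.4 at E10.5 (79.4 to 86.3). Over all genes with a region at both stages the medians were 84.8 and 83.3, and over the mitochondrial ribosomal protein genes 76.9 and 77.7. The members were therefore close to the typical accessible promoter in the middle of the distribution. They were fewer in its lower part, since 73 of 73 lay at or above the percentile of 50 at E9.5, compared with 91.3% of all genes with a region in that list. At E10.5, 71 of 73 did so, compared with 87.2%. The percentile of 75 was reached by 62 of 73 members at E9.5 (84.9%), compared with 68.8% of all genes with a region, and by 55 at E10.5 (75.3%), compared with 64.4%.

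The upper part was thinner than that of all genes as well. At E9.5, 14 of 73 members reached the percentile of 90 (19.2%, interval 11.8 to 29.7), compared with 32.4% of all genes with a region, and at E10.5, 17 did (23.3%, interval 15.1 to 34.2), compared with 32.6%. Mitochondrial ribosomal protein genes reached the percentile of 90 about as often as the members. Their counts were 15 of 76 (19.7%) in the earlier list and 19 (25%) in the later one. The central 80% of members ran from 72.0 to 93.5 at E9.5, whereas all genes ran from 61.2 to 97.2. At E10.5 the corresponding ranges were 62.1 to 96.7 and 46.3 to 97.3. The subunits had medians of 82.7 for the large and 82.9 for the small subunit at E9.5, and 81.3 and 85.8 at E10.5.

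**Figure D2:**
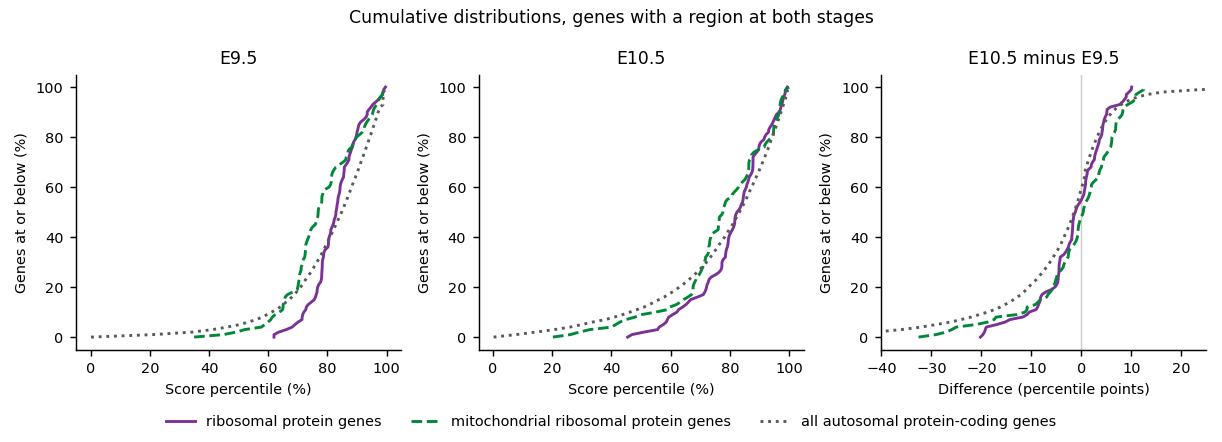
Cumulative share of genes (y axis, in percent) against the score percentile at E9.5 and E10.5 and against the difference between the stages in percentile points, for ribosomal protein genes, mitochondrial ribosomal protein genes and all autosomal protein-coding genes with a region at both stages. The curve of the ribosomal protein genes is steeper than that of all genes, with a narrower central range at both stages.

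The highest score at E9.5 was that of Rps19, a protein of the small subunit needed for maturation of its RNA. This score was at the limit, as were those of Rpl7 and Rpl24, and the order among them was not read as a difference. The Rps19 region at chr7:25668529-25670391 scored 3111.12 (percentile 99.6), and the E10.5 region at chr7:25668568-25670089 scored 2505.42 (percentile 97.9). Rpl7 scored 3100 at both stages, at percentiles of 98.8 and 99.4, and was the highest-scoring member at E10.5. Its region also covered the start of Rdh10, which encodes a retinol dehydrogenase of the retinoic acid pathway, so the score cannot be assigned to one of the genes.

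The scores of Rpl37 were 3049.07 and 2914.37, corresponding to percentiles of 97.9 and 98.8. Rps21 (score 2693.83, percentile 96.8) was among the top 5 at E9.5 and stood at 97.5 at E10.5. Rpl15 (score 2540.21, percentile 98.0), whose region is shared with Nkiras1, was among the top 5 at E10.5 and stood at 95.4 at E9.5. Scores at the limit were found in 3 members at E9.5, compared with 6.68% of all genes with a region, and in 1 member at E10.5, compared with 3.55%.

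Rpl24 held the remaining place among the top 5, and its value came from elsewhere. Its best region, chr16:55972909-55975674 at E9.5, scored 3100 and was centred 7835.5 bp downstream of the representative start, at further starts that carry the symbol Rpl24 in this annotation. RefSeq names the neighbouring gene downstream of Rpl24 Zbtb11. The region over the representative start of Rpl24 itself scored 762.89 in the E9.5 list (percentile 74.5) and 1071.64 in the E10.5 list (percentile 87.3). The best region also lay away from the representative start for Rpl18 at both stages and for Rps2 and Rpl13a at E9.5, and coincided with it at both stages for the other 69 members. With the region over the start, Rpl18 stood at 79.6 and 70.9, Rps2 at 79.0 and 70.9, and Rpl13a at 92.9 and 94.6.

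At the lower end, Rps28 (408.67) and Rpl6 (408.74) had the lowest scores at E9.5, both at a percentile of 61.9, followed by Rpl8 at 65.7, Rpl23 at 68.4 and Rpl37a at 69.4. At E10.5 the lowest were Rpl8 (214.21, percentile 45.5), Rpl6 (225.35, percentile 47.5), Rps10 (282.36, percentile 55.5), Rpl35a (288.67, percentile 56.2) and Rps16 (308.77, percentile 58.3). Rpl6 and Rpl8 were thus near the bottom at both stages, and Rps10 and Rps16 stood at 74.5 and 77.8 at E9.5, below the lower quartile of the members (78.1).

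By role, the acidic stalk proteins, which recruit translation factors to the large subunit, had percentiles of 82.3 and 81.6 for Rplp0, 78.0 and 73.1 for Rplp1, and 91.3 and 89.7 for Rplp2 at E9.5 and E10.5. Rpl5 and Rpl11, which form a particle with 5S RNA that restrains Mdm2 when ribosome assembly fails, differed in direction. Rpl5 went from 78.3 to 82.4 and Rpl11 from 78.7 to 71.6. Rps27a, made as a fusion with ubiquitin, stood at 88.6 and 93.1.

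Among the 7 genes with known developmental phenotypes, percentiles ran from 71.4 to 99.6 at E9.5 and from 65.9 to 98.6 at E10.5, where the highest value is that of the Rpl24 region away from its representative start. Rpl38 stood at 83.1 and 78.5, and its region was chr11:114528966-114531606 at E9.5. Rps7 was the lowest of them at 71.4 and 65.9. Rps20 (89.8 and 94.1), Rpsa (85.5 and 83.8), the laminin receptor precursor, and Rpl10a (88.1 and 79.4) lay between.

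Ranks were largely kept between the stages. The percentile was higher at E10.5 in 33 of 73 members (45.2%, interval 34.3 to 56.6), compared with 40.6% of all genes with regions at both stages, and lower in 40. The median difference, E10.5 minus E9.5, was -1.20 points (interval -2.43 to 0.852), compared with -1.45 over all genes. The middle 50% of members lay between -4.54 and 3.06 points, a narrower span than the -8.16 to 2.14 of all genes. Spearman's rank correlation between the percentiles of the stages was 0.842 across the 73 members, which were measured in the same embryos and are not replicates, and 0.868 across 13273 genes.

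The percentile was lower at E10.5 by at least 10 points in 8 members (11.0%), compared with 21.1% of all genes. The largest difference was that of Rpl8, from 65.7 to 45.5, a difference of -20.2 points. Rps16 (-19.5), Rpl12 (-19.3), Rps10 (-19.0) and Rpl35a (-15.6) followed. Rpl12 shared its region with Lrsam1 and Rpl35a with Iqcg, whereas the regions of Rpl8, Rps16 and Rps10 were the best region of no other gene.

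The percentile was higher at E10.5 by at least 10 points in 1 member, Rpl37a, compared with 4.9% of all genes. Its percentile went from 69.4 to 79.5. Rps27 (9.95 points), Rpl32 (8.99), Rps26 (8.97) and Rps9 (8.38) came next. With the region over its own start in place of the best region, Rpl24 was higher at E10.5 by 12.8 points, more than any other member.

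Base composition moved weakly with these differences. The rank correlation between GC content around the start and the percentile difference was -0.189 across 73 members, -0.402 across 76 mitochondrial ribosomal protein genes and -0.266 across all genes. At the extremes, Rps10 had the highest GC content (74.3%) and a difference of -19.0 points, whereas Rps20, next in GC content (71.0%), differed by 4.25. Rpl35 had the lowest (41.3%) and differed by 0.165. The part of GC content in the differences was not tested.

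Widths differed between the stages in most members. Widths in bp keep any difference between the lists as a whole, which percentiles within a list remove, so the measures cannot be compared in this respect. The median width of the member regions was 1745 bp in the E9.5 list (interval 1660 to 1863) and 1340 bp in the E10.5 list (1252 to 1493), compared with 1753 and 1506 bp over all genes. The E9.5 region was the wider in 70 of 73 members (95.9%, interval 88.6 to 98.6), compared with 77.1% of all genes and 61 of 76 mitochondrial ribosomal protein genes (80.3%). The median ratio of widths, E9.5 over E10.5, was 1.269 for the members and 1.099 for all genes. The lists as a whole differed in width too, with medians of 1100 and 1000 bp over all regions, and the part of this in the difference was not tested.

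The 3 exceptions, Rpl29, Rps3a and Rpl24, were wider at E10.5 by 26, 32 and 44 bp. Narrow regions were those of Rps28 (1049 bp) and Rpl13 (1216 bp) at E9.5, and the narrowest at E10.5 were those of Rpl6 (818 bp), Rpl13 (906 bp) and Rpl8 (914 bp). Among the widest at E9.5 were those of Rpl36 with 4542 bp and Rpl27a with 3485 bp. At E10.5 the widest were those of Rpl7 (3113 bp), Rpl24 (2810 bp, away from its representative start) and Rpl38 (2362 bp).

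The regions were placed more upstream of the start than those of all genes. At E10.5 the upstream part of the region over the start was longer than the downstream part in 50 of 73 members (68.5%, interval 57.1 to 78.0), compared with 42.4% of all genes with a covered start and 37 of 76 mitochondrial ribosomal protein genes (48.7%). At E9.5 the count was 36 of 73 (49.3%), compared with 37% of all genes and 35 of 76 mitochondrial ribosomal protein genes (46.1%). Median upstream lengths were 894 and 732 bp at the earlier and later stage for the members and 755 and 681 bp for all genes. Median downstream lengths were 804 and 575 bp for the members and 924 and 785 bp for all genes. The later regions were thus shorter inside the gene than those of all genes, by a larger margin than at E9.5.

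**Figure D3:**
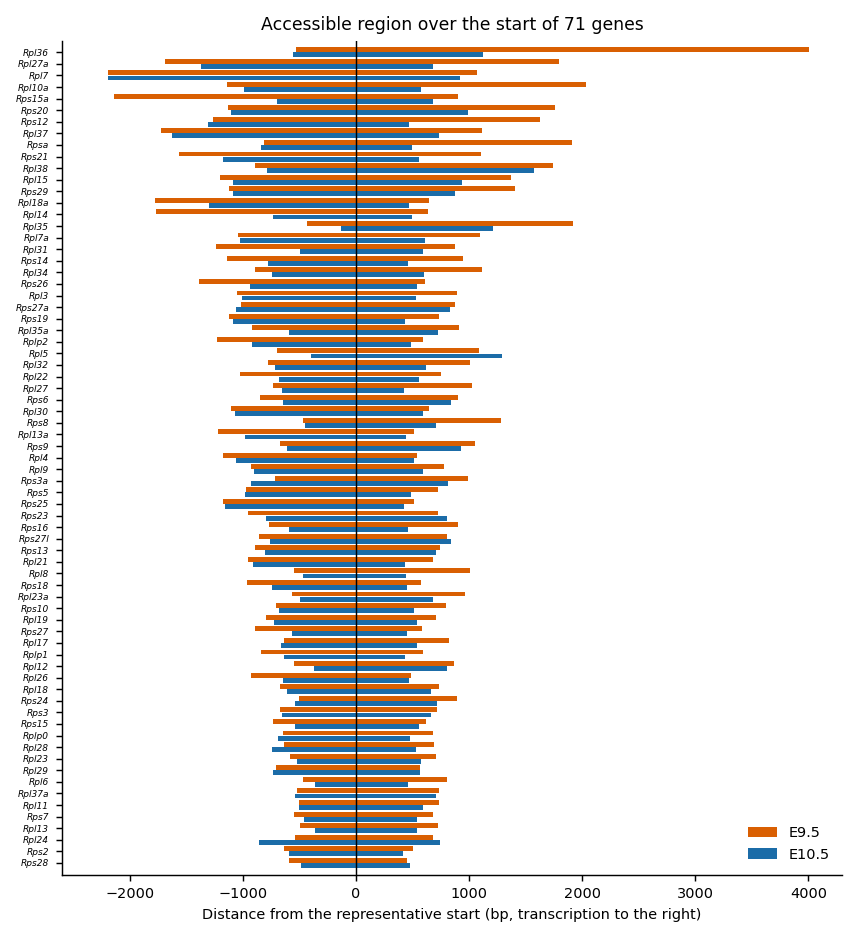
Extent of the accessible region over the representative start of 71 ribosomal protein genes (x axis, distance from the start in bp, transcription to the right), ordered by width at E9.5, with E9.5 in orange and E10.5 in blue. The bars reach further on both sides at E9.5 in most genes, and Rpl36 and Rpl27a have the longest E9.5 bars.

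Copies elsewhere in the genome were counted, because reads with more than 1 best position were not kept and ribosomal protein genes have many processed pseudogenes. Pseudogenes are named after 41 of the members in the annotation, with up to 7 for one gene. In the first 500 bp downstream of the start, an average of 10.3% of 31-base words (SD 10.3 across 76 genes) had an exact copy elsewhere, compared with 1.82% (SD 5.16) in the mitochondrial ribosomal protein genes. In the next 500 bp downstream the averages were 13.8% and 4.53%, and in the 500 bp upstream 4.98% and 3.12%. Across the 73 members with a region, the copied share downstream and the downstream length of the region had a rank correlation of -0.0297 at E9.5 and 0.0275 at E10.5. Among all members, Rpl10l, which had no region, had the highest copied share in the first 1000 bp, 46.7%. Its share in the 500 bp upstream was 22.4%. Rpl3l and Rpl39l, also without a region, had 0 in the first 1000 bp, and 1.2% and 0 upstream. Rps2, with 4 named pseudogenes, had 40.7% copied words in its first 1000 bp, and Rpl8, the lowest-ranked member at E10.5, had 0. The part of copied sequence in the scores and extents of the regions, and in the lack of a region at Rpl10l, was not tested.

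Several promoters were shared with a neighbour. A start of another protein-coding gene on the opposite strand lay within 1 kb upstream of 11 members (14.5%, interval 8.28 to 24.1), compared with 7.88% of all genes and 21 of 76 mitochondrial ribosomal protein genes (27.6%). The closest pairs were Rps27 with Rab13, 44 bp apart, Rps27a with 1700034F02Rik, 68 bp apart, and Rpl18 with Sphk2, 69 bp apart. The best region was also that of another gene for 16 of 73 members at E9.5 (21.9%), compared with 20.8% of all genes, and for 14 at E10.5 (19.2%), compared with 21.2%. The median percentiles of the 16 were 83.9 and 81.3, and those of the 57 others 82.9 and 83.4.

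Small nucleolar RNA genes, whose products guide modification of ribosomal RNA, lie inside 28 of the 73 members with a region, 56 of them in all, and inside 0 of the mitochondrial ribosomal protein genes. They were not counted over all autosomal protein-coding genes, so the share of members has no such background. Median percentiles were 81.7 and 82.9 for the 28 hosts and 83.1 and 81.6 for the 45 other members. The middle 50% of the 2 groups covered 78.3 to 89.96 and 76.5 to 87.7 at E9.5, and the difference was not tested.

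Promoter sequence was compared with that of all genes by searching exact words on both strands from 250 bp before to 50 bp after the representative start. The ETS factor word CCGGAAG was present in 29 of 76 members (38.2%, interval 28.1 to 49.4), in 30 of 76 mitochondrial ribosomal protein genes (39.5%) and in 11.4% of all genes, or 16.8% of genes with a region at both stages. The word TCTCGCGA was present in 12 members (15.8%, interval 9.27 to 25.6), in 1 mitochondrial ribosomal protein gene (1.32%) and in 1.34% of all genes. The YY1 word AAGATGG was present in 12 members (15.8%), in 15 mitochondrial ribosomal protein genes (19.7%) and in 7.11% of all genes.

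The SP word GGGCGG was present in 43 members (56.6%), above the 45.2% of all genes but below the 64.5% of genes with a region at both stages, and the NF-Y word CCAAT in 22 (28.9%) compared with 37.3%. The E-box CACGTG was present in 9 members (11.8%), compared with 7.77% of all genes and 9.77% of those with a region at both stages. For the NRF1 word GCATGCGC the count was 3 (3.95%), compared with 3.404% of all genes and 5.06% of those with a region at both stages. TATAAA was present in 7 (9.21%), compared with 13.4% of all genes and 6.77% of those with a region at both stages. On the transcribed strand between 40 and 15 bases before the start, TATAAA was found in 1 member (1.32%), compared with 2.51% of all genes and 1.08% of those with a region at both stages. The words CTTTC or CTTCC were present within 50 bases before to 30 from the start in 46 members (60.5%). They were present in 26 of 76 mitochondrial ribosomal protein genes (34.2%) and in 24.2% of all genes. CTTCC also lies within the reverse complement of the ETS word, so these counts are not independent of the ETS counts. A match is a description of the letters and was not tested for binding.

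**Figure D4:**
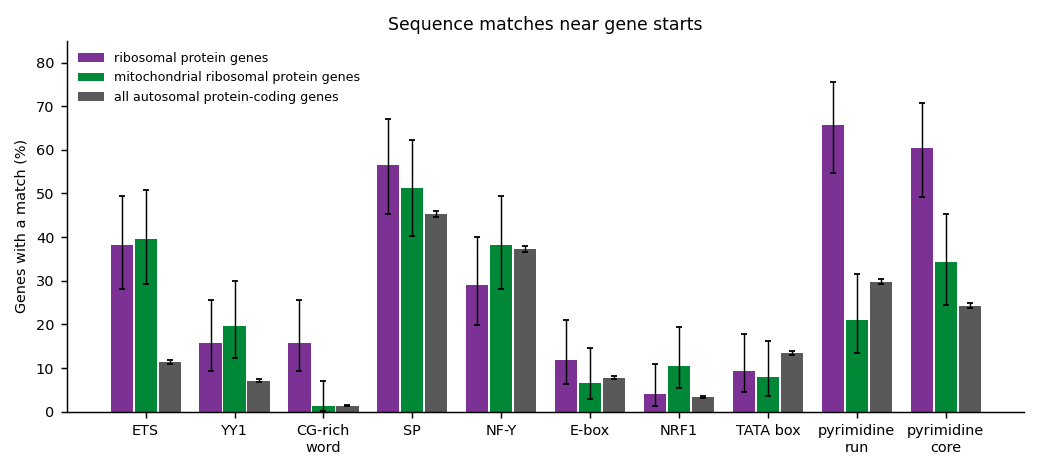
Share of genes (y axis, in percent) with an exact match to each word near the representative start, for ribosomal protein genes, mitochondrial ribosomal protein genes and all autosomal protein-coding genes, with 95% Wilson intervals as error bars. The ETS and YY1 words are as frequent in the mitochondrial group, whereas the CG-rich word TCTCGCGA and the pyrimidine features are higher in the ribosomal protein genes than in both other groups.

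The promoters of Rps19, a member with a score at the limit at E9.5, and of Rpl38, a gene known for its part in patterning, show these words in place. Each is shown from 250 bases before to 30 from the representative start in mm9, and capitals mark matches on either strand to the ETS, YY1, SP and TCTCGCGA words.
Rps19 (chr7:25669405-25669684, + strand): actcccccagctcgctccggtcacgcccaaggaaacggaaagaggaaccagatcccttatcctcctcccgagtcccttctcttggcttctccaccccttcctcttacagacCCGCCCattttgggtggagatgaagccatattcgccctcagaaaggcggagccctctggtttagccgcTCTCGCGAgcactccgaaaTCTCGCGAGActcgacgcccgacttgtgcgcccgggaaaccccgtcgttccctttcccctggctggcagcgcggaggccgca
Rpl38 (chr11:114529612-114529891, + strand): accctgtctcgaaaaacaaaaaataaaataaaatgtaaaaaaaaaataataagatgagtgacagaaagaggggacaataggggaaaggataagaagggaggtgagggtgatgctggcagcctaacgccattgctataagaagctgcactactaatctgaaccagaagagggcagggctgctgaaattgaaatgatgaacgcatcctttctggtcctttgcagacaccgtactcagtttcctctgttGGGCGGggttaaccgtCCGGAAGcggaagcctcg

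The Rps19 promoter held repeated matches to TCTCGCGA and its reverse complement besides an SP word, and the Rpl38 promoter held SP and ETS words close to the start. The percentiles of members with and without each word follow as a description, E9.5 first. The 28 members with an ETS word and a region had median percentiles of 84.7 and 84.3, and the 45 without 81.2 and 81.9. The 12 with TCTCGCGA had 83.4 and 81.6, and the 61 without 82.9 and 83.4. The 42 with an SP word had 85.1 and 83.6, and the 31 without 80.4 and 81.5. The 49 with a pyrimidine run of at least 8 had 82.9 and 81.9, and the 24 without 84.1 and 84.1. The medians were higher with the ETS word and with the SP word at both stages, and these gaps were not tested.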

How the data were processed

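ATAC-seq regions of forelimb buds at E9.5 and E10.5 were taken from 1 deposited list per stage. Per the submitters' processing notes and the study's methods, the authors aligned reads with Bowtie 1.1.0 to mm9, keeping unique alignments with up to 2 mismatches, ran MACS 1.4 on single replicates with no control library, and combined replicates with MSPC at a stringent p of 1e-10 and a weak p of 1e-06. The deposited score is, by the authors' processing, -log10 of the lowest MACS p-value multiplied by 10.

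Genes were those of GENCODE vM1 on NCBIM37, with the chromosome lengths of mm9, within which all regions lay. Starts up to 100 bp apart were chained, and the chain with the most protein-coding transcripts gave the representative start, as its median. Of 55 members with a promoter in the RefSeq table (GRCm38), all matched mm9 exactly and 51 lay within 100 bp. Overlap meant 1 bp or more. GC content covered 300 bp, and copies were exact 31-base words on either strand. Analyses used Python 3.11.15, pandas 2.3.3, numpy 2.4.6, scipy 1.17.1 and pysam 0.24.0, and the overlap and word counts were tested on simulated data. No hypothesis test was run, since each stage has a single list.

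The members and lists were chosen with earlier results of these data known. Named genes were members without a region or without overlap, the 5 highest and lowest percentiles of each list, the 5 largest rises and falls, the 3 widest and narrowest regions, role groups (stalk, 5S particle, developmental, l paralogs, Rps27a) and companion lists, with ties broken by width and then symbol. Members with copies or a neighbour, and those used to illustrate sequence, were singled out after their values were seen. Some named items are not reported here and are left out of the plots by gene, while counts and medians cover every member.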

Additional observations from a re-analysis of the deposited data

How the results depend on the processing

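A count was taken to hold when it stayed within 1.5 times the reported one. A median was taken to hold when it stayed inside its 95% order-statistic interval. With 73 of 76 members, a count could not rise past that limit, and only a large fall would have moved it. Only presence, overlap, percentile, width and rank difference were varied, and not the placement, sequence or copy results. Of 65 alternative values, 63 held and 2 moved. These 2 were the median percentiles when scores were ranked among promoter-proximal regions alone, which gave 59.4 at E9.5 and 58.9 at E10.5, compared with 63.5 and 60.4 for all genes on that scale. Every result that was varied was taken with distances of 1 kb and 5 kb and with the region's edge in place of its centre. Each was also taken with 1 start per gene and without the l paralogs. Counts with a region and overlaps were also taken in the higher-scoring 50% of each list, and rank differences without scores at the limit. Overlaps were also taken with a reciprocal overlap of 50% (66 at E9.5 and 68 at E10.5, compared with 73). No share over all genes stands beside these reciprocal counts, so whether they are high or low is not known. The region over the representative start, and leaving out members that share a region, were chosen after seeing the data and applied to percentiles, widths and rank differences.

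No paired analysis was possible because the replicates of a stage were merged into a single list, and no replicate was left out for the same reason. Depth is unknown, so no limit of detection can be given for the members without a region, and scores of the stages are not on a common scale.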

Other observations

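Companion genes outside the symbol rule were also read from both lists. The X-linked Rps4x, Rpl10, Rpl36a and Rpl39 all had overlapping regions, at percentiles of 59.99 to 90.3 at E9.5 and 64.6 to 91.9 at E10.5. Rpl36a was higher at E10.5 by 12.3 points, a larger rise than that of any autosomal member by its best region. The 6 ribosomal protein genes read under other symbols had medians of 82.3 and 85.1, with Gnb2l1, the Rack1 gene, at 88.7 and 95.7 and Fau at 78.5 and 67.6.

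The 14 translation factor and related genes, listed as having messages with pyrimidine tracts, stood higher than the ribosomal protein genes, with medians of 93.6 and 93.5. Around their representative starts the longest run had a median of 8 bases and ranged from 4 to 15. It was 7 bases in Eef1a1 and 5 in Hnrnpa1. Eef1a1, which delivers aminoacyl-tRNA, scored 3150.61 and 2819.78, and Hnrnpa1 scored 3100 at both stages. Eef2, the translocation factor, had a region of 4426 bp in the earlier and 1494 bp in the later list, and its percentile differed by -12.3 points.

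Of 16 ribosome assembly genes, 16 had one in the E9.5 list and 15 in the E10.5 list, with medians of 81.5 and 83.6 over the 15 with both. Taf1b, a subunit of the factor that recruits RNA polymerase I, had a region at E9.5 alone, at a percentile of 23.0. Ubtf, which organises ribosomal DNA chromatin, went from 97.2 to 77.2 as its region went from 5007 to 1002 bp, whereas Ncl, the nucleolin gene, stayed at 98.8 and 98.8. These lists were not tested against the ribosomal protein genes.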
